A study of Mus musculus with 18 samples.

Results

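The RNA that left a poly(U) column at low formamide, enriched for short poly(A) tails, was compared with the total RNA it came from in each of 3 mice carrying the transgene TgCPEB4∆4. For every probe set the log2 value of the short-tail fraction minus that of total RNA was taken within a mouse, and the mean of the 3 mice was tested against 0. The mean used 6 of the 18 arrays of the series, and the test took its spread from these mice and 3 control mice together. A filter on low values over all 18 arrays left 27022 probe sets. Histone mRNAs that as a rule carry no tail were depleted most, H4c8 with a log2 difference of -4.30. Long noncoding RNAs and probe sets with no gene entry were lower more often than protein-coding probe sets, and no probe set rose by more than 1.82.

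Most mRNAs receive a poly(A) tail in the nucleus, which shortens in the cytoplasm and whose length bears on translation and decay. Proteins of the CPEB family bind uridine-rich elements near the 3' end of mRNAs and can recruit enzymes that lengthen or shorten the tail, which in neurons is known for its part in synaptic plasticity. A poly(U) column holds RNA by its tail, and more formamide is needed to release a longer one. Replication-dependent histone mRNAs end in a stem-loop in place of a tail, and thus show how far a preparation excludes RNA without one.

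The 3 transgenic mice and the 3 control mice were 6 weeks old, and cortex and striatum were dissected together. From each mouse, total RNA, the fraction released at 25% formamide (short tails) and the fraction released at 90% formamide (long tails) were each put on 1 array. The labels name the genotypes TgCPEB4∆4 and CTRL. The promoter that drives the transgene, the cells that express it and the strain are not stated in the labels used here, and CPEB4∆4 is known as the form of CPEB4 that lacks the fourth exon. Each preparation was amplified from 5 ng of RNA over 21 cycles, so a difference compares the share of a transcript in each preparation and not amounts per cell. Markers of both dissected regions were present on the 3 total RNA arrays of transgenic mice. The cortical glutamate transporter Slc17a7 read 11.13, 11.44 and 11.49 in mice 1, 2 and 3, and the striatal phosphoprotein Ppp1r1b read 10.70, 10.38 and 10.55. The choroid plexus marker Ttr read 12.05, 8.81 and 11.38, so that mouse 2 was low in it, and the acute-phase gene Lcn2 stood at 10.78 in mouse 1 against 5.29 and 5.30 in the others.

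Some control probe sets differed between the preparations as well. The 14 hybridization controls, bacterial transcripts added to every array, were lower on the short-tail array of each transgenic mouse, by a mean of -0.55 ± 0.17 (SD, n = 3) after the authors' normalization. The highest nonspecific control, here the limit below which a value is no exact level, read 7.51, 7.52 and 7.24 on the total RNA arrays and 5.75, 5.72 and 6.03 on the short-tail arrays. For the nonspecific control of highest GC content the difference was -1.94 ± 0.36, and for that of lowest GC content it was 0.01 ± 0.02. For 18S ribosomal RNA, which has no poly(A) tail, the 5', middle and 3' probe sets differed by -0.46 ± 0.11, -0.62 ± 0.08 and -0.22 ± 0.02. The part of these shifts in the results was not tested. When the arrays were centred on the hybridization controls, the median difference of all probe sets moved from 0.09 to 0.64, so differences below are relative to the authors' scaling. With that centring 50 of the 51 gene lists described below had more higher than lower members, and 90.7% of all genes were higher. The exception was the replication-dependent histones. Of the 10 lists with a negative median 9 turned positive. With quantile normalization again 22.5% of all genes were higher and 13.7% lower, and the medians of 11 lists turned negative: chromatin regulators, synaptic adhesion, dendritic, potassium channel, clock, autism, scaffold, GABA-A receptor and excitatory marker genes, replacement histones and small nucleolar RNA hosts.

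Of 27022 probe sets, 8695 (32.2%) were higher and 5264 (19.5%) lower in the short-tail fraction of transgenic mice at an adjusted p under 0.05 (limma, Benjamini-Hochberg). Above the nonspecific controls on all 6 arrays were 14122 probe sets, of which 5099 were among the higher and 1938 among the lower. Dimmer probe sets remain in all counts, also in those of the gene lists below. For example, only 5 of 15 interferon genes and 79 of 186 Zfp zinc finger genes were above these controls on all 6 arrays. The share of calls that were higher was 62.3%, against 51.2% with quantile normalization again, 53.5% without the filter, 72.04% with a stricter filter, 72.7% with centring on the median and 96.2% with centring on the hybridization controls. With 1 probe set per gene, 4251 of 11974 genes (35.5%) were higher and 1424 (11.9%) lower. Most differences were small. Of the probe sets passing, 198 were higher by 1 or more and 0 by 2 or more, whereas 565 were lower by 1 or more and 26 by 2 or more. The largest differences were 1.82 and -4.30. The sign was the same in all 3 mice for 8582 of the higher and 5196 of the lower probe sets.

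Replication-dependent histone mRNAs were the group lowest in the short-tail fraction. Of 16 on the array 11 passed the filter. Of these 8 were lower and 2 higher, against 11.9% lower and 35.5% higher among all genes, and the median was -0.82 against 0.14. H4c8, a core histone H4 gene, stood at 9.85, 10.32 and 10.50 in the total RNA of mice 1, 2 and 3 and at 5.71, 5.83 and 6.22 in their short-tail fractions. Its groups lay far apart, and the difference was -4.30 ± 0.17 (SD, n = 3; adjusted p = 7.1e-10, limma), with 2 of 3 short-tail arrays above the nonspecific controls. H3c1, a histone H3 gene, read 12.66, 12.70 and 12.80 in total RNA, near the top of the scale, and 9.35, 9.45 and 9.62 in the short-tail fraction. It thus fell by 3.25 ± 0.06 (SD, n = 3; adjusted p = 9.4e-09, limma) and stayed above the nonspecific controls on all 6 arrays. The linker histone H1f4 read 8.75, 8.56 and 8.73 in total RNA and 5.59, 5.68 and 5.55 in the short-tail fraction. No short-tail array had it above the nonspecific controls, which makes it at least 7.17-fold lower there. H3c14 fell by 2.11 ± 0.19, H2bc22 by 1.34 ± 0.60 and H3c4 by 0.82 ± 0.01, each above the nonspecific controls on all 6 arrays. Of these 6 genes H2bc22 varied most between mice, at -1.86, -1.47 and -0.68.

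The group was not uniform. The linker histone H1f2 read 10.15, 9.29 and 8.62 in total RNA and 10.66, 10.04 and 9.43 in the short-tail fraction. It was higher in every mouse, by 0.69 ± 0.15 (adjusted p = 0.00088, limma), although its levels differed more between mice than between preparations. The other gene counted as higher, H3c15, had differences of 0.94, 0.94 and 0.93, but its total RNA values of 5.80 to 5.86 and its short-tail values of 6.73 to 6.80 all lay below the nonspecific controls of the total RNA arrays, so that no direction can be given. H2bc4 had differences of -0.49, 0.30 and 0.78 and did not pass (adjusted p = 0.38). H1f6 and H3c7 were counted as lower, with differences of -0.29 and -0.24. In both preparations they lay below the nonspecific controls of the total RNA arrays, so that no direction can be given. Both turned positive with centring on the hybridization controls (0.26 and 0.31). H4c8, H3c1, H1f4, H3c14, H2bc22 and H3c4 stayed below 0 under that centring, as did the median of the list (-0.27). Histone genes are near-identical copies of each other, so 1 probe set can read several of them.

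The start-site sequences of 4 of these genes are shown because they set H1f4 (lower) beside H1f2 (higher), linker histones with opposite differences, and H3c14 (lower) beside H3c15, a near-identical copy with no direction. Each is the 60 bases before the gene's start in RefSeq (GRCm38.p6), 5' to 3' on the gene's strand, with matches to CCAAT and TATANA on that strand in capitals.
H1f4 (chr13:23622559-23622618, minus strand): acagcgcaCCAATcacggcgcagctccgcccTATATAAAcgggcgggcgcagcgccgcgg
H1f2 (chr13:23738747-23738806, plus strand): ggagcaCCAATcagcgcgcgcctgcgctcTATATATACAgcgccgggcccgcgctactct
H3c14 (chr3:96246625-96246684, plus strand): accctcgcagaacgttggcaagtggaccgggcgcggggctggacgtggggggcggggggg
H3c15 (chr3:96239128-96239187, minus strand): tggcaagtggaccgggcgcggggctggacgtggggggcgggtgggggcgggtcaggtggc
Both linker histone genes hold both motifs. The windows of H3c14 and H3c15, from 250 bases before to 50 after the start, share a run of 231 bases. Searched on both strands, CCAAT was in the windows of 7 of the 8 replication-dependent histones with an entry, 6 of the 8 replacement histones and 37.4% of all 32851 windows. TATANA was in 5 of 8, 1 of 8 and 24.7%.

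Replacement histones, which are made outside S phase from polyadenylated mRNAs, did not show this loss. Of 10 on the array 9 were tested, 3 were higher and 0 lower, with a median of 0.03. H2az2 rose by 0.36 ± 0.10, Macroh2a1, a histone of silenced chromatin, by 0.25 ± 0.01 and H2ax, which is phosphorylated at DNA breaks, by 0.20 ± 0.06. The H3.3 genes H3f3a and H3f3b, both at -0.07, did not pass (adjusted p = 0.48 and 0.45, limma). H2az1, H1f10 and Macroh2a2 (0.11, 0.03 and -0.11) did not pass either, nor did H2aj with mice at -0.81, -0.26 and 0.52. Quantile normalization again gave 1 higher and 1 lower, with a median of -0.14. In the long-tail fraction, which is set against the same total RNA arrays, H3c1 and H3c14 read -3.56 and -2.24 and H3f3b -0.09. H4c8 read -4.70 there, with 1 of 3 long-tail arrays above the nonspecific controls.

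**Figure D1:**
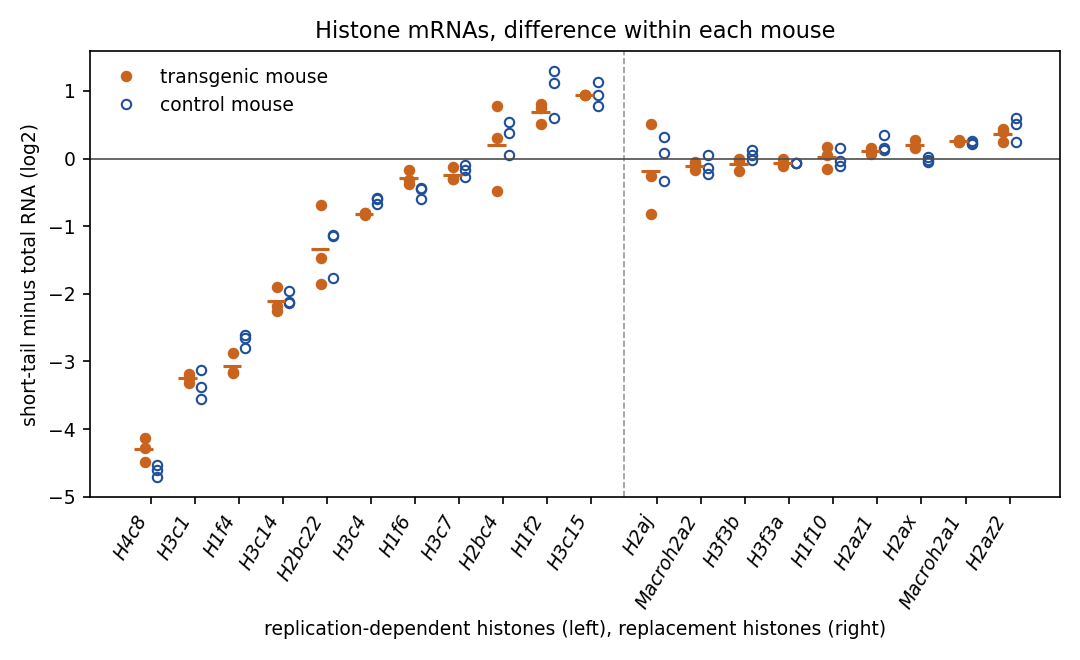
Short-tail minus total RNA (log2, y axis) for 11 replication-dependent histones (left) and 9 replacement histones (right); filled points are the 3 transgenic mice, open points the 3 control mice, and bars the transgenic mean. The 3 transgenic mice lie well below 0 from H4c8 near -4.30 to H3c4 at -0.82, close together but for H2bc22, while replacement histones lie around 0.

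A list of long noncoding RNAs, most of which are known to stay in the nucleus, also had more lower than higher members. Of 22 on the array 19 were tested, of which 8 were lower and 2 higher, with a median of -0.12. With centring on the hybridization controls 3 were lower and 11 higher, with a median of 0.43. Kcnq1ot1, an antisense RNA that silences an imprinted domain, read 9.43, 9.84 and 9.66 in total RNA and 8.02, 8.24 and 8.07 in the short-tail fraction, a fall of 1.53 in the mean (adjusted p = 5.3e-07, limma). Malat1, an abundant nuclear-speckle RNA, read 12.34, 12.38 and 12.27 against 11.31, 11.34 and 11.36. The groups did not overlap for either RNA, and Malat1 fell by 0.99 ± 0.07 (SD, n = 3; adjusted p = 8.2e-06, limma). Rmst fell by 1.04 ± 0.03, the imprinted antisense RNA Airn by 0.67 ± 0.13 and Jpx, an activator of X inactivation, by 0.64 ± 0.23. Srrm4os, Tug1 and Snhg11 fell by 0.44, 0.29 and 0.29 and turned positive with that centring (0.11, 0.26 and 0.26). Pantr1 rose by 0.45 ± 0.26. Sox2ot, the other RNA counted as higher, lay below the nonspecific controls of the total RNA arrays in both preparations, so that no direction can be given. Meg3, Miat, Neat1 and Norad, the last of which is known as mostly cytoplasmic, read -0.08, -0.12, -0.11 and -0.11 and did not pass (adjusted p from 0.22 to 0.42, limma). The long-tail values of Kcnq1ot1, Malat1 and Airn were -0.22, -0.42 and 0.31.

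The same order held over whole annotation classes. Of 18459 protein-coding probe sets 36.6% were higher and 12.0% lower, with a median of 0.14. Of 511 probe sets for long noncoding RNAs 12.3% were higher and 38.6% lower, with a median of -0.15. Of 7468 probe sets without a gene entry in the annotation 22.8% were higher and 36.6% lower, with a median of -0.09. The latter classes' medians turned positive (0.40 and 0.46) with centring on the hybridization controls, and remained below the protein-coding median, then 0.69. The medians of the 3 mice were 0.12, 0.12 and 0.17 for protein-coding, -0.14, -0.19 and -0.15 for long noncoding and -0.09, -0.10 and -0.07 for unannotated probe sets. Each mouse thus gave the same order. Of the 565 probe sets lower by 1 or more, 465 (82.3%) had no gene entry, against 27.6% of all those tested. These classes include dim probe sets and were not counted apart above the nonspecific controls. The highest of these controls itself differed by -1.59 ± 0.33, and its part in the order of the classes was not tested. In the long-tail fraction the medians were -0.02, 0.10 and 0.03.

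**Figure D2:**
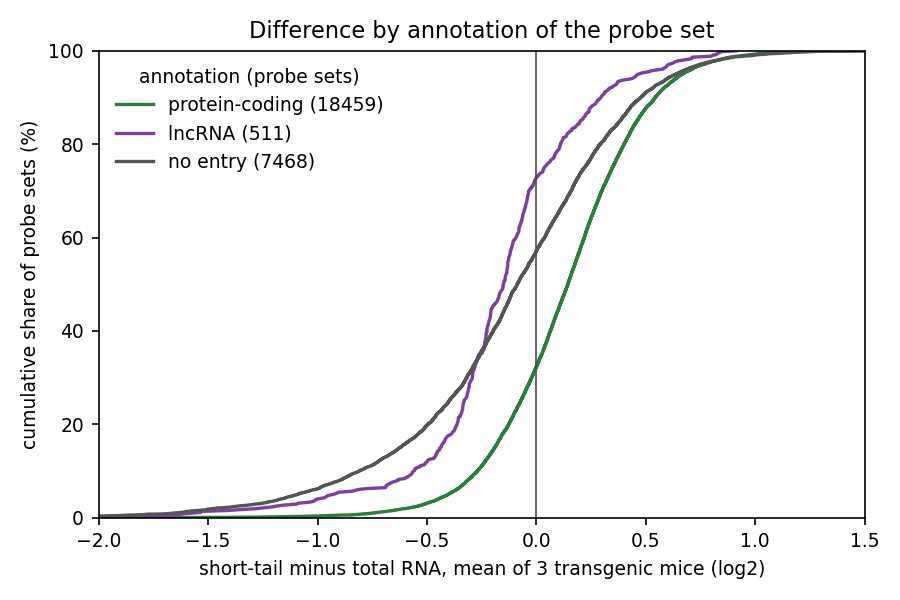
Cumulative share of probe sets (%, y axis) against the mean short-tail minus total difference of 3 transgenic mice (log2, x axis; values beyond the axis are not shown), for protein-coding, long noncoding and unannotated probe sets. The curves of the latter classes lie to the left of the protein-coding curve over the lower part of the range, with medians of -0.15 and -0.09 against 0.14.

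Apart from histones and Kcnq1ot1, the largest falls among genes above the nonspecific controls on all 6 arrays were those of Lrtm1, Tma16, Speer8-ps1, 9530059O14Rik, Csmd3, Mab21l1, Lncpint and Sorbs2. Lrtm1, a leucine-rich repeat membrane protein, read 7.97, 8.12 and 8.38 in total RNA and 6.32, 6.16 and 6.22 in the short-tail fraction, and fell by 1.92 ± 0.26 (adjusted p = 1.6e-06, limma). Csmd3, a large membrane protein with complement-control domains, read 8.98, 9.08 and 8.62 against 7.30, 7.48 and 7.06 and fell by 1.61 ± 0.06. Groups did not overlap for either gene. Tma16, linked to ribosome assembly, fell by 1.75 ± 0.24, the pseudogene Speer8-ps1 by 1.64 ± 0.33 and the unnamed transcript 9530059O14Rik by 1.63 ± 0.16. Mab21l1, a gene of eye and brain development, fell by 1.55 ± 0.36, the long noncoding RNA Lncpint by 1.42 ± 0.27 and the actin-binding adaptor Sorbs2 by 1.41 ± 0.25. In the long-tail fraction Csmd3 and Mab21l1 read -1.58 and -1.25, but Sorbs2 -0.23, Lncpint -0.41 and Lrtm1 -0.53.

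Probe sets of a single gene could lie on opposite sides. Of 4622 genes with 2 or more tested probe sets, 508 (11.0%) had both a higher and a lower one passing, and in 183 of them both were above the nonspecific controls on all 6 arrays. Among all tested probe sets with 1 gene 35.8% were higher and 12.9% lower, and how many such pairs these shares alone would give was not tested. Genes with such pairs spanned a median of 69.9 kb, against 32.9 kb for all genes with 2 or more tested probe sets. The number of probe sets per gene, which bears on how often a pair can arise, was not accounted for. The widest pair was that of Kcnq5, a potassium channel of the M-current. One of its probe sets had differences of 0.34, 0.36 and 0.33 in mice 1, 2 and 3, and another of -1.82, -1.89 and -2.17. The gene's direction thus depends on which of them is read. Kirrel3, a synaptic adhesion protein, had 0.37 ± 0.07 and -1.17 ± 0.18, the chromatin remodelers Ep400 and Bptf had 0.49 and -1.07, and 0.71 and -0.76, and the histone methyltransferase Kmt2c had 0.38 and -0.95. The control mice gave the same signs (0.13 and -1.88 for Kcnq5, 0.34 and -1.28 for Kirrel3). No source used here gives the place of each probe set along its transcript.

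**Figure D3:**
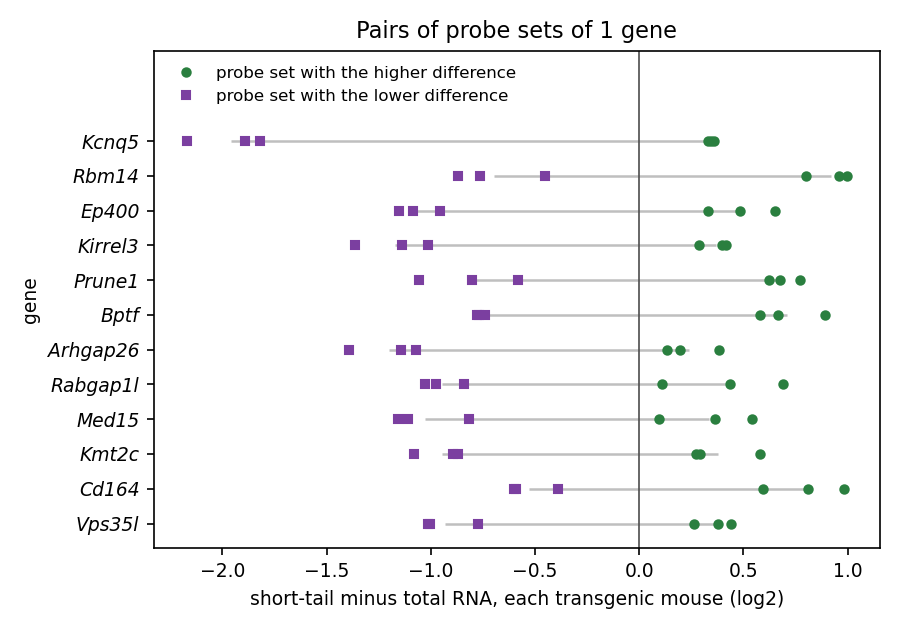
The 12 genes with the widest gap between a higher and a lower passing probe set, both above the nonspecific controls on all 6 arrays; x axis, short-tail minus total RNA (log2) in each of 3 transgenic mice, circles for the higher and squares for the lower probe set, with a line joining their means. The mice of 1 probe set cluster on 1 side of 0, as for Kcnq5 at 0.34 and -1.96.

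Rises were smaller and spread over genes of many functions. Among genes above the nonspecific controls on all 6 arrays the largest was that of Ciao2a, of cytosolic iron-sulfur protein assembly. It read 8.14, 7.83 and 7.49 in total RNA and 9.25, 9.05 and 8.89 in the short-tail fraction, 1.25 ± 0.14 higher (SD, n = 3; adjusted p = 0.00012, limma). Sec62, of protein import into the endoplasmic reticulum, read 9.75, 8.91 and 8.31 against 10.62, 10.05 and 9.46. Its groups overlapped, but it was higher within each mouse, by 1.05 ± 0.16. Vps4b, an ATPase of membrane remodelling, rose by 1.07 ± 0.20, and the glypican Gpc5 and the membrane protein Tmem219 each by 1.00 ± 0.14. Rnaset2b, a ribonuclease, rose by 0.99 ± 0.01, the zinc and manganese carrier Slc39a8 by 0.98 ± 0.08 and Tmem98 by 0.98 ± 0.04. Leprot, Cmss1 and Ebpl rose by 0.97 each, and Pgd, an enzyme of the pentose phosphate pathway, by 0.96 ± 0.03. These 12 genes lay between -0.50 and 0.20 in the long-tail fraction. Where total RNA was not above the nonspecific controls only a bound can be given: Sumf1, which activates sulfatases, was at least 2.17-fold higher in the short-tail fraction, the peroxisome factor Pex2 at least 1.92-fold and glycogenin Gyg at least 1.79-fold. For Gng10 and Tufm the bounds were 1.74-fold and 1.67-fold.

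The CPEB genes themselves did not move together. Cpeb3 read 9.01, 9.29 and 9.02 in total RNA and 8.32, 8.62 and 8.50 in the short-tail fraction. It fell in every mouse, by 0.63 ± 0.09 (adjusted p = 0.00011, limma). Cpeb4 read 8.58, 8.55 and 7.99 against 8.02, 8.32 and 7.79, and its groups overlapped. It fell by 0.33 ± 0.20 within mice (adjusted p = 0.013, limma) and turned positive with centring on the hybridization controls (0.22). No source used here says whether this probe set of Cpeb4 reads the transgene. In the long-tail fraction Cpeb4 read -1.20 and Cpeb3 -0.29. Cpeb2 passed as higher, but its means of 6.19 in total RNA and 6.97 in the short-tail fraction both lay below the nonspecific controls of the total RNA arrays, so that no direction can be given. Cpeb1 (0.26 ± 0.25) did not pass (adjusted p = 0.105, limma). Each of these genes was read by its probe set of highest mean, with a median of -0.04 over the family. Over all probe sets of the family the median was 0.20.

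A list of deadenylase subunits and related enzymes had more higher than lower members. Of 16 tested 8 were higher and 1 lower, with a median of 0.24. Over all probe sets of these genes the median was 0.08, beside 0.14 over all tested probe sets with 1 gene. Beside deadenylase subunits the list holds Tut1, Noct, Angel1 and Angel2, and Noct, Angel1 and Angel2 were among those higher. The catalytic subunit Cnot7 read 8.42, 8.65 and 8.80 in total RNA and 9.19, 9.43 and 9.35 in the short-tail fraction, a rise of 0.70 ± 0.13. Angel2 and the poly(A)-specific ribonuclease Parn rose by 0.57 ± 0.11 and 0.41 ± 0.20. Of 17 genes on a list of deadenylase recruiters and RNA-binding proteins such as Elavl1, 7 were higher and 2 lower, with a median of 0.16. Of 27 genes of cleavage, tail synthesis and tail binding 9 were higher and 4 lower, with a median of 0.15. Among them the cleavage factor subunit Fip1l1 rose by 0.65 ± 0.19 and the noncanonical poly(A) polymerase Tent4b by 0.50 ± 0.13. Beside 35.5% higher and 11.9% lower among all genes, the counts of the latter lists lay close to the background. Without mouse 1 there were 5 higher deadenylase genes and 1 lower gene of cleavage and tail synthesis, without mouse 2 there were 2 higher recruiters and 2 lower genes of that list, and without mouse 3 there were 4 higher recruiters. After quantile normalization again deadenylases had 6 higher and 2 lower, recruiters 2 and 2, and genes of cleavage and tail synthesis 6 and 4.

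Chromatin regulators were lower more often than higher, and single synaptic and channel genes fell as far. Of 52 chromatin regulators 17 were lower and 10 higher, with a median of 0.01, beside 11.9% lower and 35.5% higher among all genes. The bromodomain protein Baz2b read 8.96, 9.10 and 9.04 in total RNA and 8.07, 8.03 and 7.88 in the short-tail fraction. Its groups did not overlap, and it fell by 1.04 ± 0.14 (adjusted p = 2.4e-05, limma). Kmt2c fell by 0.95 ± 0.11 in its probe set of highest mean, whereas another of its probe sets passed as higher (0.38), as given above. The methyltransferase Nsd1 fell by 0.93 ± 0.16. Of 76 genes associated with autism 16 were lower and 17 higher, with a median of 0.05. Nlgn1, a postsynaptic adhesion protein, read 7.93, 8.25 and 7.78 against 5.98, 6.41 and 5.81 and fell by 1.92 ± 0.07, with 2 of 3 short-tail arrays above the nonspecific controls. The protocadherin Pcdh9, also among the autism genes, fell by 0.77 ± 0.05. The scaffold Erbin, the secreted protein Reln and Setd5 rose by 0.58 ± 0.25, 0.51 ± 0.08 and 0.50 ± 0.11. Without mouse 2 or without mouse 3 there were 9 higher autism genes. These counts turned on the scaling: with quantile normalization again 20 chromatin genes were lower and 5 higher, and 21 autism genes lower and 5 higher, whereas with centring on the hybridization controls 3 and 2 were lower and 38 and 62 higher.

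Of 59 potassium channel genes 18 were higher and 12 lower, and of 31 calcium, sodium and HCN channel genes 8 were higher and 4 lower, with medians of 0.04 and -0.01. Over all genes 35.5% were higher and 11.9% lower, with a median of 0.14. The inward rectifier Kcnj6 fell by 0.84 ± 0.12, the A-type channel Kcna4 by 0.74 ± 0.17 and Kcnh7 by 0.73 ± 0.07. Kcnc2, of fast-spiking interneurons, and the sodium channel Scn3a rose, by 0.62 ± 0.10 and 0.70 ± 0.13. Of 22 glutamate receptor genes 6 were lower and 5 higher, with a median of -0.05. The NMDA receptor subunit Grin2a, above the nonspecific controls on only 1 of 3 total RNA arrays, fell by 1.10 ± 0.23. Grin2b and Grik3 fell by 0.51 ± 0.18 and 0.49 ± 0.06, and both turned positive with centring on the hybridization controls (0.04 and 0.06). The metabotropic receptor Grm7 rose by 0.63 ± 0.14. Of 25 postsynaptic scaffolds 7 were higher and 4 lower. Homer1 read 9.75, 10.31 and 10.53 in total RNA and 9.04, 9.64 and 9.74 in the short-tail fraction. It was lower within every mouse, by 0.72 ± 0.06, although the lowest total RNA value, that of mouse 1, was only just above the highest short-tail value. Of 30 synaptic adhesion genes 8 were higher and 3 lower, the latter Nlgn1, Lrrtm3 (-0.47) and Flrt2 (-0.45), of which Lrrtm3 and Flrt2 turned positive with centring on the hybridization controls (0.08 and 0.10). Of 50 SNARE and vesicle genes 22 were higher and 3 lower, with a median of 0.12, among the higher Synpr and Syt2 (0.60 ± 0.20 and 0.59 ± 0.07). Leaving out a mouse moved some of these counts. Higher potassium channels numbered 9 without mouse 1 and 11 without mouse 3, and higher adhesion genes 4 and 5. Higher scaffolds numbered 4, 4 and 2 without mice 1, 2 and 3. Without mouse 2 there were 3 lower glutamate receptors and 2 lower calcium, sodium and HCN channels, and without mouse 3 there were 3 higher glutamate receptors. The balance of most of these lists turned on the scaling. With quantile normalization again potassium channels had 7 higher and 12 lower, and calcium, sodium and HCN channels 6 and 8. Scaffolds had 2 and 7 and adhesion genes 6 and 8. SNARE and vesicle genes had 12 and 4, with a higher share close to the 22.5% of all genes. Glutamate receptors then had 4 higher and 8 lower.

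Other neuronal lists differed in their share of higher members, from 2 of 16 excitatory neuron markers to 22 of 42 activity-regulated genes, beside 35.5% of all genes. Of 34 neuronal RNA-binding proteins 8 were higher and 8 lower. The splicing regulator Nova1 rose by 0.83 ± 0.38 with mice at 0.52, 0.74 and 1.25, and Pura fell by 0.67 ± 0.15. Of 29 calmodulin kinase and dendritic genes 7 were higher and 6 lower, among the latter Ppp1r9a, an actin-binding protein of spines (-0.66 ± 0.09). Of 25 kinesins 5 were higher and 4 lower, of 8 GABA-A receptor genes 2 and 1, of 21 active zone genes 6 and 2, and of excitatory neuron markers 2 and 4. Of 19 clock genes 5 were higher and 3 lower. Of 32 genes of striatal medium spiny neurons 11 were higher and 3 lower. The substance P precursor Tac1 read 8.28, 8.47 and 8.42 in total RNA and 8.84, 9.33 and 9.20 in the short-tail fraction, 0.73 ± 0.16 higher, and the dopamine receptor Drd1 rose by 0.56 ± 0.18. Rgs9, a striatal regulator of G protein signalling, went the other way, by -0.61 ± 0.14. Of activity-regulated genes 22 were higher and 2 lower, with a median of 0.24, among them Fosb (0.72 ± 0.25). Of 29 neuropeptide and interneuron genes 13 were higher and 1 lower, among them Vip (0.65 ± 0.08). Without mouse 2 the activity-regulated count was 14 higher, and without mouse 3 it was 19 higher and 4 lower. The neuronal RNA-binding list had 5 higher and 5 lower genes without mouse 1 or mouse 3 and 4 and 5 without mouse 2. Higher dendritic genes numbered 3 and 4, and higher clock genes 2 and 3, without mice 2 and 3. Kinesins had 3 higher and 2 lower without mouse 1, 2 and 2 without mouse 2 and 2 and 5 without mouse 3, and 2 excitatory markers were lower without mouse 1 or mouse 2. With quantile normalization again the balance turned for neuronal RNA-binding proteins (2 higher and 13 lower), dendritic genes (3 and 7), kinesins (2 and 6) and clock genes (2 and 6). Active zone genes then had 6 higher and 5 lower, striatal genes 6 and 5, activity-regulated genes 12 and 4, neuropeptide genes 10 and 2 and excitatory markers 1 and 4.

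Lists of housekeeping genes had medians near or above 0 in the short-tail fraction, beside negative medians in the long-tail fraction of the same mice. Over all genes these medians were 0.14 and -0.01, with 35.5% higher and 11.9% lower in the short-tail fraction. The higher counts of complex I, mitochondrial ribosome and proteasome genes lay close to that share. Those of the cytosolic ribosome and of complexes II to V lay below it. The 66 tested genes of the cytosolic ribosome, of 68 on the array, had a median of -0.05, with 10 higher and 6 lower. The mice differed: their medians were -0.22, 0.00 and 0.21. Without mouse 1 the counts were 11 and 1, without mouse 2 they were 9 and 1, and without mouse 3 they were 7 and 19. The 3 largest falls, in Rpl17, Rpl23a and Rpl29, of 0.51, 0.43 and 0.46, all turned positive with centring on the hybridization controls (0.04, 0.12 and 0.09). Rpl22 rose by 0.71 ± 0.07. In the long-tail fraction the list's median was -0.71. The 33 complex I genes had a median of 0.10 in the short-tail fraction (11 higher, 1 lower) against -0.87 in the long-tail fraction, and the 38 genes of complexes II to V had 0.10 (8 higher, 3 lower) against -0.57. Ndufb11 rose by 0.48 ± 0.12 and Ndufv1, which binds NADH, by 0.45 ± 0.07. Complex I medians were 0.06, 0.10 and 0.36 in mice 1, 2 and 3, so that mouse 3 was highest here as well. The 73 genes of the mitochondrial ribosome had 28 higher and 1 lower with a median of 0.21, against -0.46 in the long-tail fraction. Without mouse 3 these counts were 17 and 7, and 7 complex I genes were higher. Without transgenic mouse 2 or 3 or control mouse 2 or 3, 5 genes of complexes II to V were higher. Mrps12 rose by 0.62 ± 0.13. The 35 proteasome genes had 12 higher and 0 lower with a median of 0.17, against -0.44. Psmd6 rose by 0.52 ± 0.17. Without mouse 2 the proteasome count was 6. Quantile normalized again, all genes had 22.5% higher and 13.7% lower with a median of 0.05. The mitochondrial ribosome then had 12 higher and 6 lower with a median of 0.07, and the proteasome 5 and 0. The cytosolic ribosome had 8 and 11, complex I 9 and 1 and complexes II to V 4 and 3.

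Several lists of RNA and protein handling had more higher members than the 35.5% of all genes. Of 23 snRNP and Lsm genes 14 were higher and 1 lower, with a median of 0.34 against -0.42 in the long-tail fraction. Lsm10, of the U7 particle that processes histone mRNA ends, read 7.90, 7.60 and 8.01 in total RNA and 8.29, 8.44 and 8.59 in the short-tail fraction, 0.60 ± 0.22 higher. Of 28 ubiquitin-conjugating enzymes 17 were higher and 1 lower, with a median of 0.28, among them Ube2z (0.60 ± 0.04). Of 37 chaperones 20 were higher and 2 lower, among them Bag1 and the mitochondrial Hspa9 (0.55 ± 0.07 and 0.54 ± 0.10). Of 42 translation factors 18 were higher and 1 lower, among them Eif1a (0.67 ± 0.08). Of 25 SR and hnRNP splicing genes 11 were higher and 3 lower. Srsf3 rose by 0.59 ± 0.04, whereas Hnrnpab fell by 0.69 ± 0.08 from 12.69, 12.72 and 12.68 to 11.96, 12.12 and 11.93. Of 186 Zfp zinc finger genes tested, of 295 on the array, 70 were higher and 27 lower. Zfp644 fell by 1.13 ± 0.13 and Zfp280d by 0.95 ± 0.09. Of 45 Rab GTPases 20 were higher and 3 lower, and of 35 mitochondrial import and carrier genes 13 and 1. Of 21 genes linked to neurodegeneration 9 were higher and 0 lower, and of 8 small nucleolar RNA hosts 2 and 0. The higher counts of zinc finger and of import and carrier genes lay close to the 35.5% of all genes. That of small nucleolar RNA hosts lay below it. Without mouse 3 there were 10 higher translation factors and 13 higher chaperones. Without mice 2 and 3 higher splicing genes numbered 5 and 3, and higher neurodegeneration genes 4 and 4. With quantile normalization again, beside 22.5% of all genes, snRNP genes had 10 higher and 0 lower, ubiquitin-conjugating enzymes 9 and 4, chaperones 15 and 3, translation factors 10 and 2, Rab GTPases 11 and 2, zinc finger genes 48 and 31 and import and carrier genes 10 and 1. Splicing genes (4 and 3) and neurodegeneration genes (4 and 2) then lay below that share. Small nucleolar RNA hosts (1 and 1) stayed below the share of all genes.

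Lists of glial and vascular markers had more higher than lower members in the short-tail fraction, as had 44 of the 51 lists. Over all genes 35.5% were higher and 11.9% lower. For levels that differ between mice, fewer cells of a type and less RNA per cell cannot be told apart in such bulk samples. Both preparations of a mouse came from the same RNA, and the cause of the short-tail minus total differences was not tested. Of 19 microglial markers 14 were higher and 0 lower, with a median of 0.37 and mice at 0.19, 0.44 and 0.40. Tmem119 read 8.34, 8.09 and 8.24 in total RNA and 8.86, 8.57 and 8.97 in the short-tail fraction, 0.58 ± 0.14 higher. The complement subunit C1qa rose by 0.09, 0.66 and 0.81 in mice 1, 2 and 3, and its total RNA values were 10.68, 8.96 and 8.59, so that mouse 1 was highest in level and lowest in difference. Without mouse 2 the microglial count was 7 and without mouse 3 it was 9. Of 24 endothelial and mural genes 16 were higher and 0 lower, with a median of 0.35, among them Ly6c1 (0.75 ± 0.11). Of 19 meningeal and fibroblast genes 14 were higher and 0 lower, with a median of 0.50, among them the collagen Col3a1 (0.75 ± 0.32). Of 28 astrocyte markers 13 were higher and 1 lower, among them the folate enzyme Aldh1l1 (0.60 ± 0.05), and of 26 oligodendrocyte genes 13 were higher and 1 lower. Without mouse 2 the oligodendrocyte count was 7 and without mouse 3 it was 8. Of 9 choroid plexus and ependymal genes 2 were higher and 1 lower, and of 7 red blood cell genes 3 and 1. Of 15 interferon genes 6 were higher and 0 lower, and of 14 genes of antigen presentation (MHC class I, class II and processing) 6 and 0. Of 20 reactive and acute-phase genes 8 were higher and 1 lower, and of 19 stress-response genes 11 and 1. Apart from the stress-response list, these higher counts lay close to the share of all genes. Without mouse 1, in which Lcn2 was high, 7 interferon genes were higher and 2 lower. Without mouse 2 there were 6 higher stress-response genes and 3 higher antigen presentation genes, and without mouse 3 there were 2 of the latter. The member with the largest difference was the class II gene H2-Ab1, above the nonspecific controls on 1 of 3 total RNA arrays. Quantile normalized again, 22.5% of all genes were higher and 13.7% lower. Microglial genes then had 9 higher and 0 lower, endothelial genes 12 and 1, meningeal genes 10 and 0 and astrocyte genes 10 and 1. Oligodendrocyte genes (5 and 1) and antigen presentation genes (3 and 1) then had a slightly smaller higher share than all genes. Stress-response genes had 5 and 1, choroid plexus genes 2 and 2 and red blood cell genes 2 and 0.

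**Figure D4:**
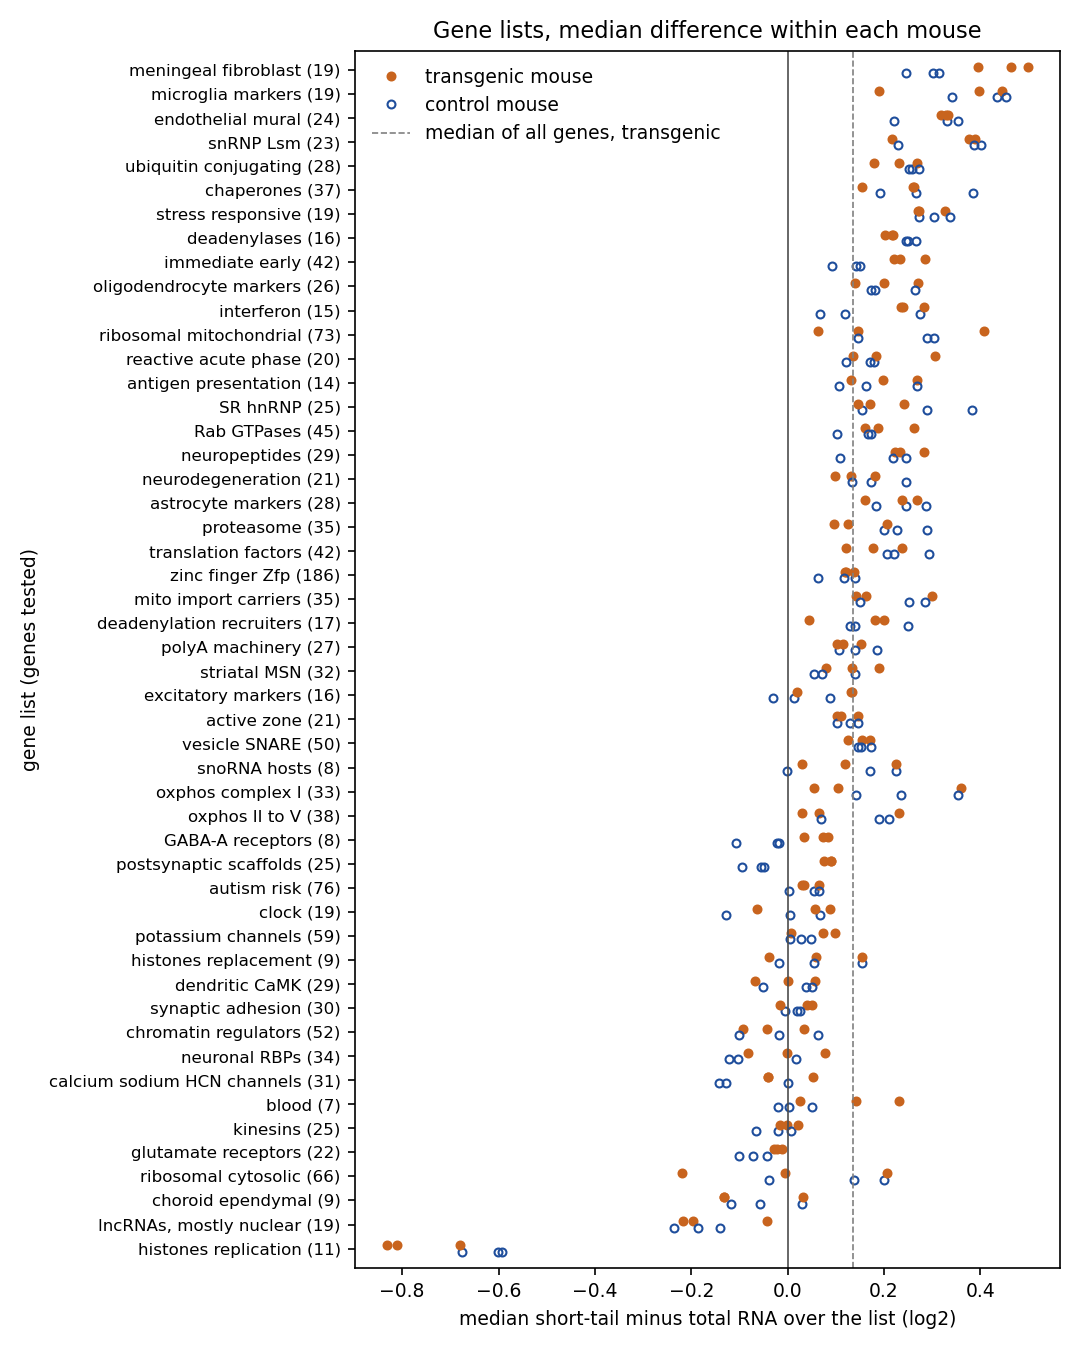
Median short-tail minus total difference (log2, x axis) over each gene list with 5 or more tested members (y axis, number of tested genes in brackets), for each of 3 transgenic mice (filled) and 3 control mice (open); the dashed line is the median of all genes in transgenic mice, 0.14. Replication-dependent histones lie far to the left, between -0.83 and -0.68 in transgenic and between -0.68 and -0.59 in control mice, and meningeal, microglial and endothelial genes to the right.

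Control mice gave nearly the same picture. In them 8972 probe sets (33.2%) were higher and 5357 (19.8%) lower. Their arrays are separate from those of transgenic mice, and over 27022 probe sets the mean differences of the genotypes correlated at 0.93, as a description across probe sets that share preparation and array design. The differences of 2 mice correlated at 0.77 to 0.84 within transgenic mice and at 0.79 to 0.87 between a transgenic and a control mouse. Of the 13959 probe sets that passed in transgenic mice, 13788 (98.8%) had the same sign in the control mean, and of 11422 that passed in both, 2 had opposite signs.

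The genotypes' differences were also compared directly, and 0 of 27022 probe sets passed (lowest adjusted p = 0.86, limma). At an unadjusted p under 0.05 there were 1437 (5.32%), of which 770 were higher and 667 lower in transgenic mice. The genes of smallest p, none of which passed, were Duxbl1, Anxa4, Stat5a, Nt5dc2 and Pars2 in the first direction. Pars2, the mitochondrial prolyl-tRNA synthetase, had differences of 0.44, 0.55 and 0.41 in transgenic and 0.02, -0.02 and -0.05 in control mice, and was above the nonspecific controls on all 6 transgenic arrays. In the other direction they were Gadd45a, Adck2, Cirbp, Pde1c and Hsdl1. The cold-inducible RNA-binding protein Cirbp had 0.46, 0.38 and 0.56 in transgenic and 0.89, 1.01 and 1.18 in control mice, and the phosphodiesterase Pde1c had -0.08, 0.13 and -0.04 against 0.68, 0.49 and 0.45. Groups did not overlap for these 3 genes, and adjusted p-values were 0.86 (limma). Cpeb4 differed by -0.01 between the genotypes. Of 51 lists, 7 had p = 0.1 between the genotypes by exact permutation of the mice's medians (two-sided), the smallest p that 3 against 3 mice allow, and none passed over the lists (lowest adjusted p = 0.73, Benjamini-Hochberg). These 7 are 13.7% of the lists, beside 1279 of 11974 genes (10.7%) whose 3 transgenic mice did not overlap the 3 control mice. Among them were activity-regulated genes (0.28, 0.22 and 0.23 in transgenic, 0.15, 0.09 and 0.14 in control mice) and meningeal genes (0.50, 0.46 and 0.40 against 0.30, 0.24 and 0.31).

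**Figure D5:**
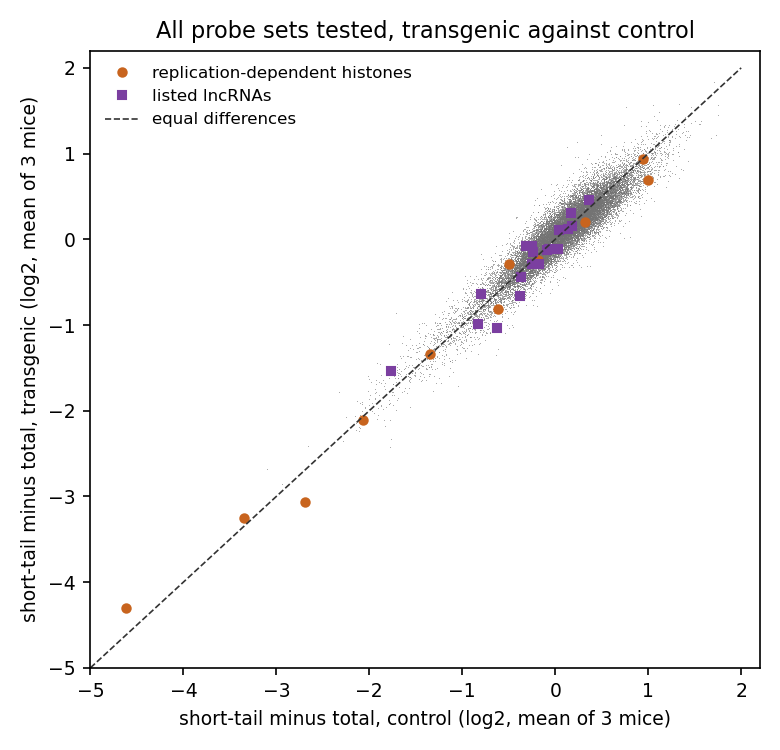
Mean short-tail minus total difference (log2) of 3 transgenic mice (y axis) against that of 3 control mice (x axis) for 27022 probe sets (dots), with replication-dependent histones as circles, listed long noncoding RNAs as squares and a dashed line of equal differences. The probe sets lie along the line, with a correlation of 0.93, and the most depleted histones lie at its lower end.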

How the data were processed

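The authors deposited 1 log2 value per probe set and array. Per the submitters' processing notes it came from RMA (version not given in the sources used here). Another array is named in the series' design text than in the probe annotation, which was used. Precision rests on 3 mice per genotype, as arrays have no read depth. Of 45141 probe sets 104 controls were left out, and 27022 with a mean over 18 arrays above the 40th percentile (5.95) were tested: 19143 with 1 gene, 411 with several and 7468 with no entry. Symbols were checked against RefSeq (GRCm38.p6), and each gene was read by its probe set of highest mean.

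Differences within a mouse were fitted for all 6 mice with limma 3.58.1 in R 4.3.3 (lmFit, eBayes, Benjamini-Hochberg over all probe sets), a fit tested on simulated data. Titles assign both preparations to a mouse, and their deviations from group means correlated at 0.73, 0.51 and 0.59 in transgenic and at 0.30, 0.10 and 0.53 in control mice. Named genes were the 12 largest passing changes each way with the same sign in 3 mice and above the nonspecific controls on all 6 arrays, examples from the 3 largest passing changes each way in a list, all CPEB, histone and listed lncRNA genes, and for the genotype difference the 5 of smallest p each way. Members and lists were chosen with earlier results of these data known. Alternatives were no pairing, transgenic mice only, other filters and scalings, trend and robust eBayes, and leaving out each mouse. Centring on the hybridization controls was chosen after seeing the data. Long-tail values come from the same fit and share the total RNA arrays.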

Additional observations from a re-analysis of the deposited data

Results flagged for a closer look

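In Stat5a, a transcription factor of cytokine signalling, every transgenic mouse lay above 0 (0.85, 0.49 and 0.38) and every control mouse below it (-0.18, -0.11 and -0.15), a genotype difference of 0.72 that did not pass when tested (adjusted p = 0.86, limma). Its total RNA values were below the nonspecific controls on the 3 transgenic arrays. In the kinase-like gene Adck2 the signs were the reverse (-0.12, -0.07 and -0.12 in transgenic, 0.38, 0.52 and 0.34 in control mice), a genotype difference of -0.52 that did not pass either (adjusted p = 0.86, limma). The median over 25 postsynaptic scaffold genes lay above 0 in every transgenic mouse (0.09, 0.08 and 0.09) and below it in every control mouse (-0.05, -0.06 and -0.10), a difference of 0.15, and that over 8 GABA-A receptor genes likewise (0.08, 0.07 and 0.03 against -0.11, -0.02 and -0.02), a difference of 0.11. By exact permutation of the mice p was 0.1 for each list, the smallest that 3 against 3 mice allow, and neither passed over 51 lists (adjusted p = 0.73). In transgenic mice both medians turned negative with quantile normalization again.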

How the results depend on the processing

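The pairing of preparations within a mouse is a replicate block, and without it 5428 probe sets were higher and 3793 lower in transgenic mice and 5904 higher in control mice, with 14 of 115 named genes losing their call and 0 changing sign. With the spread taken from transgenic mice only, 7961 were higher and 4676 lower in them. With centring on the hybridization controls 22477 were higher and 890 lower in transgenic mice, and 20369 and 1121 in control mice. With the 60th percentile filter 2641 (transgenic) and 2763 (control) were lower, and without a filter 8886 and 9000. Leaving out any 1 mouse gave 6579 to 8645 higher and 3899 to 5159 lower in transgenic mice, 6127 to 9321 and 3761 to 5563 in control mice, and 0 passing for the genotype difference. The cause of these changes was not tested.

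Calls for the long-tail fraction against total RNA in transgenic mice were not stable, and none is used above: 14 higher and 83 lower with all 6 mice, 830 and 2285 with transgenic mice only, 57 and 357 without the replicate block, 2 and 35 with centring on the median, 0 and 17 with the 60th percentile filter, and 0 and 3 with quantile normalization again or centring on the hybridization controls. Lower calls numbered 55 without a filter and 55 with trend and robust eBayes. Leaving out 1 mouse gave 0 to 615 higher and 3 to 1740 lower.

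With centring on the hybridization controls the sign turned for Cpeb4 (0.22), Flrt2 (0.102), Grik3 (0.059), Grin2b (0.036), H1f6 (0.26), H2aj (0.37), H3c7 (0.31), H3f3a (0.49), H3f3b (0.48), Lrrtm3 (0.076), Macroh2a2 (0.44), Meg3 (0.47), Miat (0.43), Neat1 (0.44), Norad (0.44), Rpl17 (0.039), Rpl23a (0.12), Rpl29 (0.093), Snhg11 (0.26), Srrm4os (0.11) and Tug1 (0.26). Other turns were those of H1f10 with quantile normalization again (-0.14) or on leaving out a mouse (-0.044 to 0.12), H3f3a with centring on the median (0.0016), and H2aj (-0.54 to 0.13) and H2bc4 (-0.092 to 0.54) on leaving out a mouse, none of which passed in the main setting. The number of mice and, for dim probe sets, the signal of the nonspecific controls limit the precision.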
